A study of Mus musculus with 8 samples.

Results

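Chemokines are small secreted or membrane-anchored proteins that attract cells carrying the matching receptor. The 10 described here, Cxcl1, Cxcl2, Cxcl5, Cxcl10, Cxcl12, Cxcl14, Cxcl16, Ccl2, Ccl7 and Cx3cl1, were taken as a list of gene symbols, drawn up with earlier results of these data known, and all 10 were found among the 18877 genes of the table. Their mRNA was measured by RNA-seq in activated muscle stem cells (ASCs), the stem cells of skeletal muscle after they leave quiescence, in 4 wild-type and 4 mfn2-/- libraries. Mitofusin 2, encoded by Mfn2, is an outer membrane protein through which mitochondria fuse. Mice of both groups carried Pax7-CreERT2 and a Cre-dependent Dendra2 reporter in mitochondria, and the mfn2-/- mice also carried floxed Mfn2 alleles. All received tamoxifen at 75 mg/kg on 5 days, and 2 days later the tibialis anterior muscle was injured with 50 uL of 1.2% barium chloride. At 2 days post injury, living cells without CD34 and with Dendra2 were sorted, so that recombination and sorting both depended on Pax7-driven Cre. The age and sex of the mice and whether animals were pooled are not given in the sources used here. Nothing in the labels says which mouse gave which library, so p-values measure the spread between libraries, which may be partly technical.

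Chemokines fall into groups by receptor. CXCL1, CXCL2 and CXCL5 act through CXCR2, which is carried by neutrophils, and CCL2 and CCL7 act through CCR2, which is carried by inflammatory monocytes. CXCL10 is an interferon-inducible ligand of CXCR3, CXCL12 is the ligand of CXCR4 and of the scavenging receptor ACKR3, and CXCL14 is made constitutively in many tissues. CXCL16 and CX3CL1 are tethered to the cell membrane until they are cut off by ADAM proteases. After muscle injury neutrophils arrive first and monocytes follow, and stem cells, fibroadipogenic cells, endothelial cells and leukocytes all make chemokines. The inflammatory members are classical targets of NF-kB, a family of transcription factors that bind kappa B sites.

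Depth ran from 1880464 assigned reads (wild-type replicate 1) to 7508215 (wild-type replicate 4), and mfn2-/- replicate 4 came next to the lowest with 2269009. Values are the deposited normalized reads, 1 sequenced read was worth 0.534 to 2.27 of them, and 3 reads, taken as the floor, were worth at most 6.82. Reads of Y-linked genes were at 0 in wild-type replicates 1 and 2 and in mfn2-/- replicates 3 and 4, and numbered 807 to 2336 in the other 4 libraries. Each group thus held 2 libraries of each kind, and the kinds ran opposite to the replicate numbers. Mfn2 itself stood at 243, 245, 202 and 228 in the wild-type libraries and at 104, 118, 172 and 109.95 in the mfn2-/- ones. Its log2 change of -0.88 (SE 0.30) did not pass the limma test (adjusted p = 0.0848), although the groups did not overlap, and reads outside the floxed part of the gene count toward these values. Of 10 muscle stem cell markers 4 passed as higher in mfn2-/- libraries (Myod1 by 2.32, Sdc4 by 2.08, Des by 1.91 and Vcam1 by 1.21 on the log2 scale). As lower 0 passed, beside 3.99% of all genes tested called higher and 6.36% lower. Changes were above 0 for 7 of these markers and below 0 for 3. Among the 3, Itga7 went from 1249 ± 635 to 621 ± 94.7 normalized reads (SD, n = 4 each). Its log2 change of -0.87 did not pass (limma adjusted p = 0.110). Pax7, which defines the lineage, averaged 662 ± 45.9 and 715 ± 96.1 normalized reads (wild-type, then mfn2-/-, SD, n = 4 each) and did not pass. The wild-type libraries also held many reads of 14 fibroadipogenic and tendon markers, 5.41 to 7.55% of all normalized reads against 0.134 to 0.245% in mfn2-/- libraries.

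The stretches before the start sites are shown for the 3 members that hold a kappa B match there and for Cxcl14, the member with the largest change. RefSeq start sites (GRCm38.p6) were matched for 6 members, namely Cxcl1, Cxcl2, Cxcl10, Cxcl12, Cxcl14 and Cx3cl1. Each line gives the bases from 180 to 31 before the start site on the gene's own strand, and capitals mark motif matches. The regions are chr5:90891065-90891214 (plus strand) for Cxcl1, chr5:90903719-90903868 (plus) for Cxcl2, chr5:92348920-92349069 (minus) for Cxcl10 and chr13:56296582-56296731 (minus) for Cxcl14.
Cxcl1: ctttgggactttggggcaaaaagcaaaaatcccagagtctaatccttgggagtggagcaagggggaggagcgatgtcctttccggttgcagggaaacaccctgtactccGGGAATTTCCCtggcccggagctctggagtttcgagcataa
Cxcl2: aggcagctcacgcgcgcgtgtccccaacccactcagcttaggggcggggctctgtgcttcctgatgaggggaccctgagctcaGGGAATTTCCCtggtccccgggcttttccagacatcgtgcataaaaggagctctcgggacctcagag
Cxcl10: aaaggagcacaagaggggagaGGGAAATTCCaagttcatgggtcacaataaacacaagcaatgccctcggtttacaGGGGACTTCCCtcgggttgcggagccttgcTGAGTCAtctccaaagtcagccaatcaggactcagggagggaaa
Cxcl14: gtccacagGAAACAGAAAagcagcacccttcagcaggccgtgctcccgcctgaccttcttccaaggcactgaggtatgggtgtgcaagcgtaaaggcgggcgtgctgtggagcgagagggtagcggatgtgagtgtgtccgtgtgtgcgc

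Cxcl1 and Cxcl2 held the identical 11-base kappa B match, GGGAATTTCCC, at -71 to -61 and at -97 to -87. Cxcl10 held kappa B matches at -159 to -150 and at -104 to -94 and an AP-1 match (TGANTCA, capitals TGAGTCA) at -74 to -68. The run in Cxcl14 at -172 to -163 matches an interferon-stimulated response element (GAAANNGAAA), and Cxcl10 has such a match farther out, at -213 to -204. Over the 250 bases before the start site, searched on both strands, 7.25% of all 32851 RefSeq windows held a kappa B match, 6.75% an AP-1 match and 2.98% the interferon element, so that such matches are not rare. In Cxcl12 and Cx3cl1 these letters were not found in the window, and the matches of different motifs did not overlap. The window of Cx3cl1 precedes its RefSeq start site but runs past the gene start in the GENCODE M21 annotation (chr8:94772009). It thus lies partly inside the annotated gene. A match describes letters and not binding, which was not measured here.

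Of the 10 members, Cxcl14 alone passed the limma test on log2(value + 1), and it was lower in mfn2-/- ASCs. The test covered 11754 genes with a mean of at least 10, of which 10.4% were called in either direction at an adjusted p under 0.05, 3.99% as higher and 6.36% as lower. The 1 call among 10 members is close to that share. Differences were above 0 for 6 members and below 0 for 4, with a median of 0.81 on the log2 scale beside -0.16 over all genes tested. At an unadjusted limma p under 0.05 there were 5 of the 10 members and 2918 of the 11754 genes tested. Values of the groups did not overlap for Cxcl5 and Cxcl14, as for 19.5% of all genes tested. The plot of values by library shows the levels behind these counts, and the plot of changes gives each difference with its interval.

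**Figure D1:**
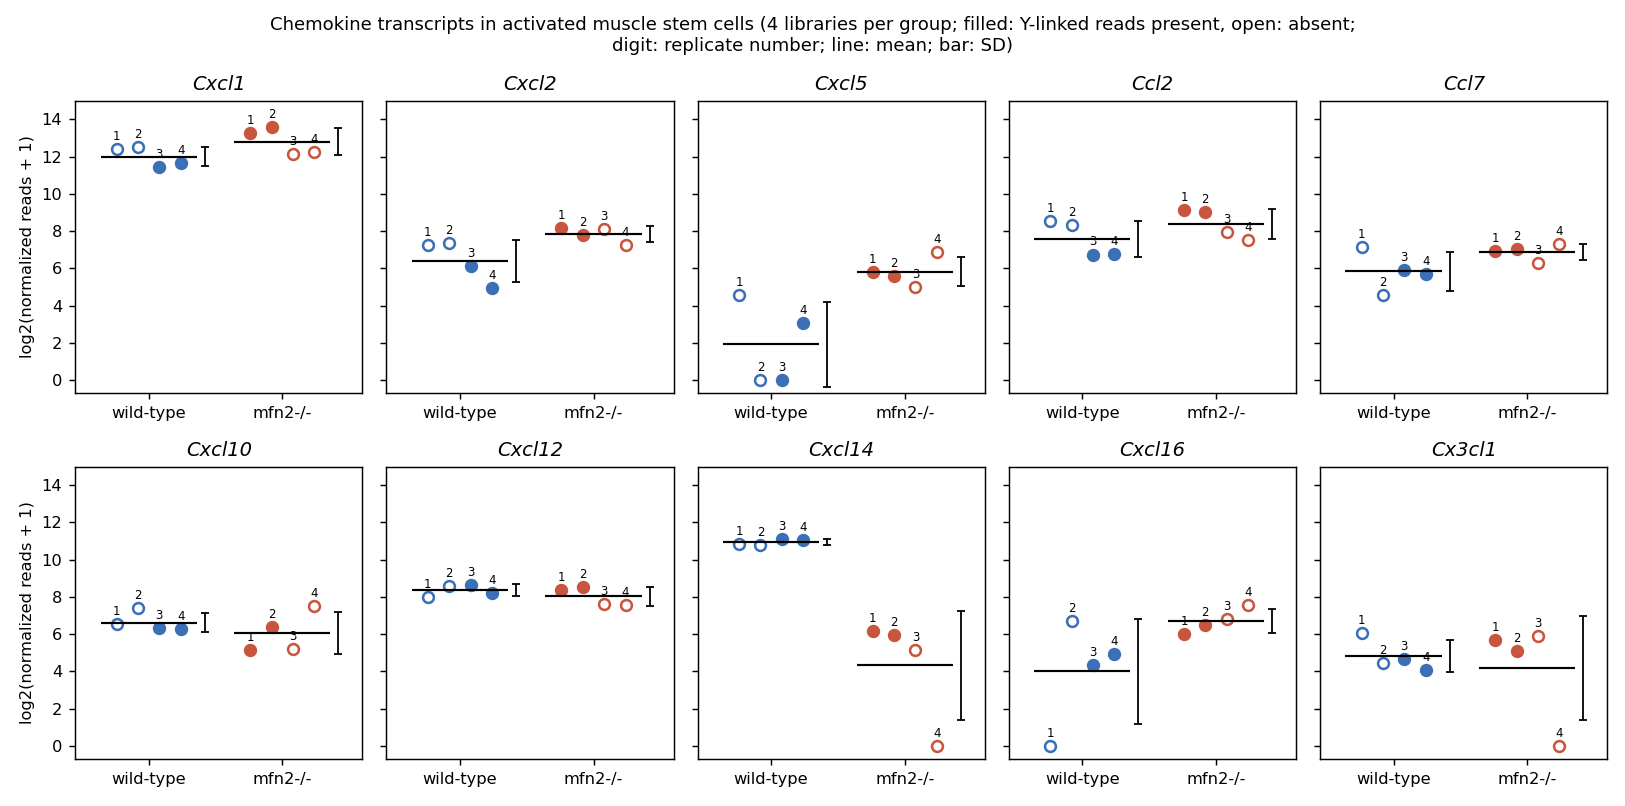
Each panel plots 1 chemokine as log2(normalized reads + 1) in the 4 wild-type (blue) and 4 mfn2-/- (red) libraries, with filled points for libraries with Y-linked reads, open points for those without, digits for replicate numbers, a line for the mean and a bar for the SD. Cxcl14 lies between 1750.5 and 2193 normalized reads in wild-type and between 0 and 72.0 in mfn2-/- libraries, while Cxcl1 is the most abundant member in all 8.

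**Figure D2:**
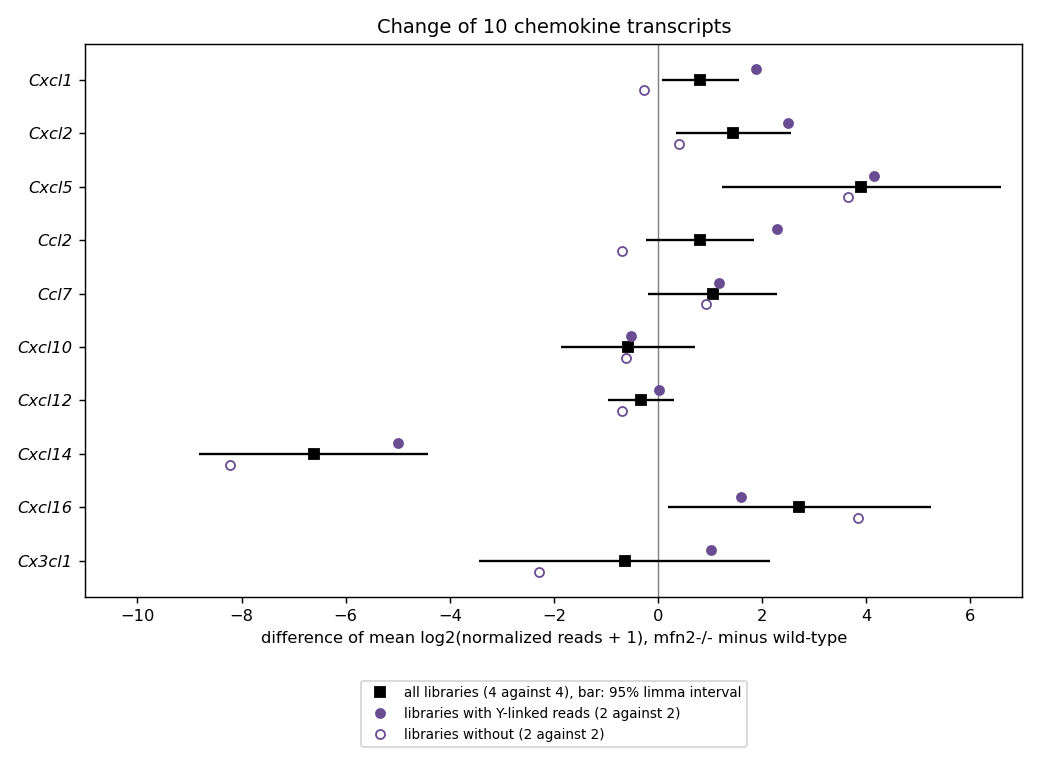
Squares plot the difference of mean log2(normalized reads + 1), mfn2-/- minus wild-type, for each member with the 95% interval of the limma fit over 4 against 4 libraries, and circles plot the same difference within libraries with (filled) and without (open) Y-linked reads. The square of Cxcl14 stands at -6.61, and the circles of Cxcl1, Ccl2, Cxcl12 and Cx3cl1 lie on opposite sides of 0.

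Among the neutrophil-attracting members, Cxcl1 (GENCODE M21 annotation of GRCm38, chromosome 5, 90891241 to 90893115, plus strand) was abundant in both groups. It gave 5442, 5811, 2819.95 and 3178 normalized reads in wild-type replicates 1 to 4 and 9963, 12185, 4574 and 4807 in mfn2-/- replicates 1 to 4. Within each group replicates 1 and 2 were the higher pair, and the lower mfn2-/- pair lay inside the wild-type range. The means were 4313 ± 1532 and 7882 ± 3797 (SD, n = 4 each), 1.83-fold apart, and the log2 change was 0.81 (SE 0.34), which did not pass (limma adjusted p = 0.161). With libraries weighted by their consistency it was 1.55 and passed (limma adjusted p = 7.79e-05). These weights were higher in the libraries with Y-linked reads (1.53 to 3.75) than in those without (0.167 to 0.908).

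Cxcl2, a close relative encoded 12630 bases from Cxcl1 (chromosome 5, 90903871 to 90905938, plus strand), was far less abundant. Wild-type libraries gave 150.1, 163, 67.8 and 29.4 normalized reads and mfn2-/- libraries 291, 224, 277 and 154. The lowest mfn2-/- library fell just under the highest wild-type one, and the other 3 exceeded every wild-type library. The log2 change was 1.44 (SE 0.51) and missed the threshold (limma adjusted p = 0.0959). With the same library weights, which favor libraries with Y-linked reads, it was 2.18 (limma adjusted p = 0.00021). Of its transcript 50-mers 5.84% also occur in Cxcl3, another CXCR2 ligand, so a small part of its reads cannot be assigned with certainty. Cxcl3 had means of 4.08 ± 8.17 and 21.4 ± 21.4 (SD, n = 4 each).

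Cxcl5 (chromosome 5, 90759360 to 90761624, plus strand) was near the floor in wild-type ASCs. It gave 22.7, 0, 0 and 7.48 normalized reads there, from 10, 0, 0 and 14 sequenced reads, and 54.0, 47.4, 30.95 and 117 in mfn2-/- libraries, from 81, 60, 42 and 64. The groups did not overlap, and the exact permutation test gave the smallest p that 4 against 4 libraries allow, 0.0286. Means were 8.26-fold apart, 7.56 ± 10.7 against 62.4 ± 37.8 (SD, n = 4 each). The log2 change of 3.90 (SE 1.24) did not pass over all genes (limma adjusted p = 0.0652), and without wild-type replicate 1, the shallowest library, it was 4.79 with an adjusted p of 0.0271 and means 25.0-fold apart. Leaving out each of the other 7 libraries gave 3.26 to 4.29, with adjusted p from 0.0915 to 0.163.

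The monocyte-attracting members lie 10141 bases apart on chromosome 11. Ccl2 (82035571 to 82037453, plus strand) stood at 366, 315, 106 and 109.5 in the wild-type libraries and at 553, 513, 246 and 179.6 in the mfn2-/- libraries, in normalized reads. As with Cxcl1, replicates 1 and 2 were the higher pair in both groups, and the lower mfn2-/- pair fell between the wild-type pairs. Its log2 change of 0.80 (SE 0.48) did not pass (limma adjusted p = 0.331). With the same library weights, which favor libraries with Y-linked reads, it was 1.80 (limma adjusted p = 0.000182). Ccl7 (82045712 to 82047525, plus strand) gave 141, 22.8, 59.6 and 51.3 in wild-type and 121, 131, 75.9 and 156 in mfn2-/- libraries. Wild-type replicate 1, with 62 sequenced reads, was within the mfn2-/- range and the other 3 wild-type libraries were below it. The log2 change of Ccl7 was 1.05 (SE 0.57, limma adjusted p = 0.285).

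For Cxcl1 and Ccl2 the difference between genotypes varied with which libraries were set against each other. Within libraries with Y-linked reads, 2 against 2, the mfn2-/- minus wild-type difference was 1.88 for Cxcl1 and 2.29 for Ccl2 on the log2 scale. Within those without such reads it was -0.26 and -0.69. The interaction of genotype with this kind was 2.14 (SE 0.19, limma adjusted p = 0.000606) for Cxcl1 and 2.98 (SE 0.45, adjusted p = 0.01002) for Ccl2, and 1.47% of genes tested passed that test. Without the intensity trend of the fit neither passed (adjusted p = 0.223 and 0.127). Cxcl2 showed 2.49 and 0.40, and its interaction of 2.09 (SE 0.75) did not pass (adjusted p = 0.295). The call for Ccl2 was lost without wild-type replicate 3 (adjusted p = 0.0603), wild-type replicate 4 (0.0574), mfn2-/- replicate 1 (0.129) or mfn2-/- replicate 2 (0.104), and it held without each of the others.

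The same 8 values can be read by replicate number. Libraries numbered 1 and 2 exceeded those numbered 3 and 4 by 0.91 on the log2 scale in wild-type and by 1.23 in mfn2-/- ASCs for Cxcl1, and by 1.65 and 1.34 for Ccl2. Within numbers 1 and 2 the mfn2-/- minus wild-type difference was 0.97 for Cxcl1 and 0.65 for Ccl2, and within numbers 3 and 4 it was 0.65 and 0.96. The interaction with Y-linked reads is, by its construction, the same contrast as this difference between number pairs, and the labels do not say what the numbers stand for, so the readings cannot be told apart. With the number pair as a term, chosen after seeing the data, Cxcl1 (adjusted p = 0.00272) and Ccl2 (adjusted p = 0.0494) passed the limma test at unchanged differences of 0.81 and 0.80. The plot of values by number pair shows the mfn2-/- mean above the wild-type mean in both pairs for these members and Cxcl2.

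**Figure D3:**
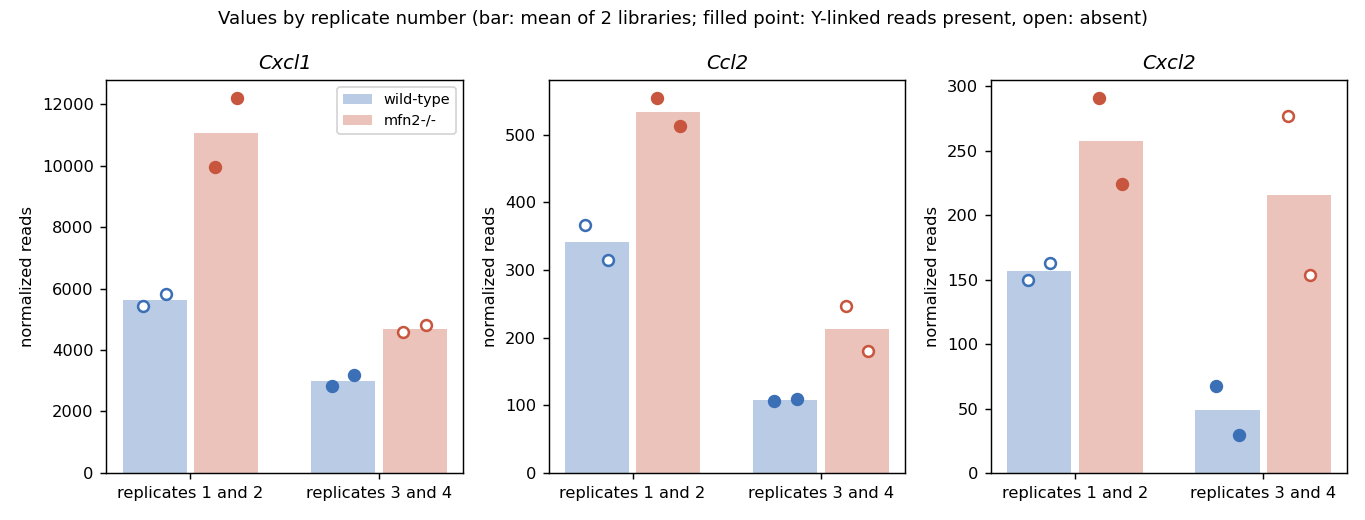
Bars plot the mean normalized reads of 2 libraries for Cxcl1, Ccl2 and Cxcl2, for replicates 1 and 2 and replicates 3 and 4 of wild-type (blue) and mfn2-/- (red), from 0 on a linear axis. Points are single libraries, filled where Y-linked reads were present, and for Cxcl1 they run from 2819.95 to 12185.

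Cxcl10, the interferon-inducible CXCR3 ligand (chromosome 5, 92346638 to 92348889, minus strand), showed no difference that passed. Wild-type libraries gave 93.2, 166, 78.4 and 75.3 normalized reads and mfn2-/- libraries 34.7, 81.4, 35.4 and 181. The groups overlapped fully, with both the lowest and the highest value in mfn2-/- libraries, the highest in the shallow replicate 4. The log2 change was -0.57 (95% interval -1.86 to 0.72, limma adjusted p = 0.596). Its exons overlap those of Art3 on the opposite strand, which share 3.59% of its transcript 50-mers, and the strand setting of the read counting is not given in the sources used here.

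The homeostatic members are Cxcl12 and Cxcl14. Cxcl12, which retains and guides CXCR4-bearing cells (chromosome 6, 117168535 to 117181367, plus strand), reached 250.2, 389, 395 and 300.2 normalized reads in the wild-type libraries, against 333, 368, 198 and 189 in the mfn2-/- libraries. Replicates 3 and 4 of mfn2-/- lay below every wild-type library, and replicates 1 and 2 inside the wild-type range. The log2 change was -0.33 (95% interval -0.97 to 0.30, limma adjusted p = 0.525).

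Cxcl14 (chromosome 13, 56288643 to 56296551, minus strand) fell in mfn2-/- ASCs. It gave 1817, 1750.5, 2193 and 2134 normalized reads in the wild-type libraries, with a spread among them of 222 (SD) around a mean of 1974. The mfn2-/- libraries gave 72.0, 61.6, 34.6 and 0, from 108, 78, 47 and 0 sequenced reads, and the value of 0 allows up to 5.50 normalized reads at the depth of that library. The lowest wild-type library was 24.3 times the highest mfn2-/- library. The mean was 46.9-fold lower in mfn2-/- libraries, at 42.1 ± 32.2 (SD, n = 4). The difference of mean log2(value + 1), in which the library at 0 weighs more than in the means, was -6.61 (SE 1.02) and passed (limma adjusted p = 0.00117). Without mfn2-/- replicate 4 the mean was 56.1 ± 19.3 (SD, n = 3), 35.2-fold lower, and the log2 change was -5.17. Within libraries with Y-linked reads the difference was -5.00 and within those without it was -8.22.

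In the same libraries 13 of 14 fibroadipogenic and tendon markers fell and 0 rose, beside 6.36% and 3.99% of all genes tested. The markers had a median log2 change of -6.72, beside -0.16 over all genes tested. Dcn, which encodes the matrix proteoglycan decorin, fell from 11218 ± 885 to 96.6 ± 22.2 normalized reads, and Pdgfra, the receptor that marks fibroadipogenic cells, from 2531 ± 695 to 31.9 ± 26.5 (SD, n = 4 each). Their part in the fall of Cxcl14 was not tested, and in bulk libraries fewer cells of a type and less RNA per cell cannot be told apart.

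The membrane-anchored members were weak. Cxcl16 (chromosome 11, 70453983 to 70459984, minus strand) read 0, 102, 19.6 and 29.9 across the wild-type libraries and 63.3, 89.3, 111 and 187 across the mfn2-/- libraries. Wild-type replicate 2 alone reached the mfn2-/- range, and wild-type replicate 1 had 0 reads, which allows up to 6.82. The log2 change of 2.72 (SE 1.17) did not pass (limma adjusted p = 0.171). Without wild-type replicate 1 it was 1.38 (adjusted p = 0.239) and without wild-type replicate 2 it was 3.61 (adjusted p = 0.0868), while edgeR gave 1.58 and DESeq2 1.56 over all 8 libraries. Exons of Zmynd15 on the opposite strand share 16.9% of its transcript 50-mers, so its values are uncertain without a known strand setting. Cx3cl1 (chromosome 8, 94772009 to 94782427, plus strand) gave 65.95, 20.7, 24.5 and 16.03 in wild-type and 50.7, 33.2, 59.7 and 0 in mfn2-/- libraries. Its log2 change was -0.64 (95% interval -3.43 to 2.15, limma adjusted p = 0.802), and it turned to 0.75 without mfn2-/- replicate 4.

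Levels were compared between members per length, as reads per kilobase of the principal transcript. Cxcl1 led in all 8 libraries and made up 70.7 ± 5.98% of the summed level of the 10 members in wild-type and 87.3 ± 2.97% in mfn2-/- ASCs (SD, n = 4 each), with ranges of 63.8 to 76.8% and 84.5 to 90.8%. With Cxcl14 left out of the sum, Cxcl1 made up 87.0 ± 1.54% and 87.5 ± 3.04% (SD, n = 4 each), with ranges of 85.6 to 89.0% and 84.5 to 91.0% that overlapped, so the higher share goes with the loss of Cxcl14 from the sum. Cxcl14 was the next member in every wild-type library, at 12.1 to 25.9% of the sum. It held 0 to 0.336% in mfn2-/- libraries, where Ccl2, at 3.70 to 5.77%, came next after Cxcl1 in level. Per length Cxcl1 exceeded Cxcl14 by 2.47 to 6.36 times in wild-type libraries and by 253 to 379 times in the 3 mfn2-/- libraries with Cxcl14 reads. In wild-type libraries Ccl2 averaged 4.08 ± 1.56%, Cxcl2, Ccl7, Cxcl10 and Cxcl12 followed with means of 1.37 to 1.82% that overlapped within their spread, and Cx3cl1, Cxcl5 and Cxcl16 stayed at 0.0712 to 0.214% on average. As normalized reads, all 10 together took 0.142 to 0.207% of a wild-type library and 0.144 to 0.340% of an mfn2-/- library.

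**Figure D4:**
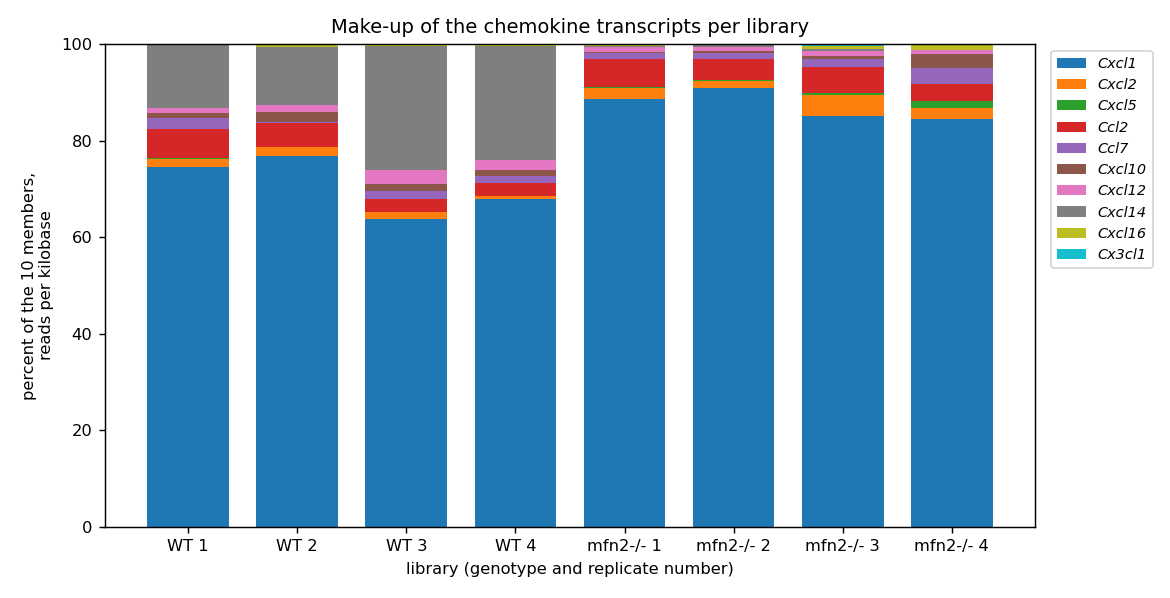
Stacked bars plot, for each of the 8 libraries, the percent that each member contributes to the summed reads per kilobase of the 10 chemokines. Cxcl1 fills 63.8 to 76.8% of the wild-type bars and 84.5 to 90.8% of the mfn2-/- bars, and Cxcl14 (grey) is visible in the wild-type bars.

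Other ligands and the receptors were taken from fixed lists. Of 28 further chemokine ligands 17 were in the table and 6 passed the filter on low values, of which 0 were higher and 1 was lower. That one, Ccl11 (eotaxin, a ligand of CCR3 on eosinophils), fell from 932 ± 319 in wild-type to 166 ± 75.8 normalized reads (SD, n = 4 each, log2 change -2.55, limma adjusted p = 0.000583). Of 23 receptors 16 were in the table and 6 were tested, with 0 higher and 2 lower. Beside the counts for ligands and receptors, 3.99% of all genes tested were called higher and 6.36% lower. Ackr4, a scavenging receptor, fell from 58.7 ± 36.1 to 0.198 ± 0.395 (adjusted p = 0.00857) and Cx3cr1, the receptor of CX3CL1, from 79.8 ± 59.7 to 5.72 ± 6.59 (adjusted p = 0.0457). Both receptors of CXCL12 were measured, Ackr3 at 307 ± 137 and 310.5 ± 126 and Cxcr4 at 131 ± 103 and 193 ± 32.0, and neither passed (adjusted p = 0.992 and 0.290). Cxcr2 and Ccr2, which the inflammatory members act on, averaged at most 17.8 normalized reads in either group.

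Of 14 tested genes that cut, trim or anchor chemokines, 1 was higher and 4 were lower, beside 3.99% and 6.36% of all genes. The 13 of 14 fibroadipogenic and tendon markers that fell did so in the same libraries as Dpp4, Mmp2, Ccl11 and the other lower genes of these lists, and their part was not tested. Sdc4, a heparan sulfate proteoglycan that is also a muscle stem cell marker, rose by 2.08 on the log2 scale (limma adjusted p = 0.000317). Dpp4, the membrane peptidase that trims CXCL10 and CXCL12, fell from 119 ± 30.7 to 1.29 ± 2.58 normalized reads (adjusted p = 0.00227), and Mmp2, a matrix protease that can cut CCL7 and CXCL12, from 5121 ± 189 to 728 ± 105 (adjusted p = 1.83e-07). Adam10, a sheddase of CXCL16 and CX3CL1, stood at 340 ± 91.1 and 311 ± 31.2 and did not pass (adjusted p = 0.856, SD, n = 4 each).

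Of 17 genes for inflammatory receptors and the NF-kB path, 8 were higher and 0 were lower, beside 3.99% of all genes called as higher, with a median log2 change of 1.03. Nfkb1 and Nfkb2, which encode NF-kB subunits made from precursors, rose by 1.95 (limma adjusted p = 0.00133) and 1.84 (adjusted p = 0.00124) on the log2 scale, and Rel, another subunit, by 1.55 (adjusted p = 0.0433). Within libraries with Y-linked reads these differences were 2.69, 2.38 and 2.52, and within those without they were 1.20, 1.29 and 0.58. Nfkbia, which encodes an inhibitor of the path, rose by 0.81 (limma adjusted p = 0.0216). It differed by 1.27 within libraries with Y-linked reads and by 0.36 within those without. Tnfaip3 and Nfkbiz, which restrain and modulate the path, had changes of 0.73 and 0.82 that did not pass (limma adjusted p = 0.0973 and 0.114). Within libraries with Y-linked reads they were 1.37 and 1.64, and within those without 0.096 and 0.0037. Of 14 tested interferon response genes 4 were higher and 0 were lower, led by Gbp2 (1.58, limma adjusted p = 0.0323), Ifnar2 (1.46, adjusted p = 0.0276) and Irf9 (1.39, adjusted p = 0.00857). Gbp2 differed by 2.93 within libraries with Y-linked reads and by 0.23 within those without. Ifnar2 differed by 1.61 and 1.31, and Irf9 by 1.32 and 1.47. Among 5 tested cytokines inducible by NF-kB other than chemokines, Il33 was lower (-3.92, adjusted p = 0.0313) and 0 were higher, and Csf1 (0.22, adjusted p = 0.612) and Lif (0.96, adjusted p = 0.429) did not pass. These lists hold genes known to act near the chemokines and were not chosen by their change, but they were drawn up with earlier results of these data known.

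**Figure D5:**
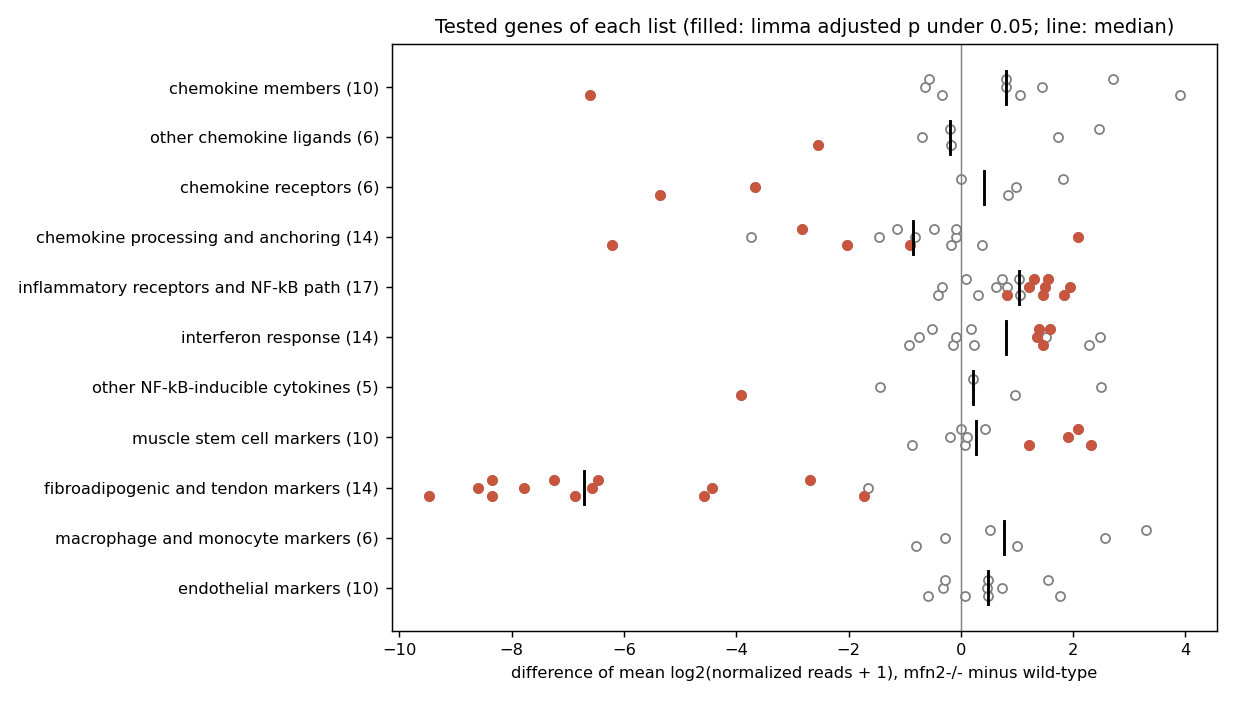
Each circle plots 1 tested gene of a list by its difference of mean log2(normalized reads + 1), mfn2-/- minus wild-type, filled where the limma adjusted p was under 0.05, with a line at the list's median and the number of tested genes in brackets. The 17 genes of the inflammatory and NF-kB list have a median of 1.03, and the 14 fibroadipogenic and tendon markers one of -6.72.

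Markers of other cells that make chemokines were measured beside the members. Of 14 macrophage and monocyte markers 6 were tested and 0 passed in either direction, and their summed level was 60.9 to 159 normalized reads in wild-type and 129 to 204 in mfn2-/- libraries. Among these, Adgre1 was at 0 in all wild-type libraries and at most 14.2 elsewhere, and Ptprc, the pan-leukocyte marker, was at most 1.603 in wild-type and 15.01 in mfn2-/- libraries. No neutrophil marker reached the filter, with sums of 1.63 to 15.9 and 1.83 to 32.4, and Ly6g and Ngp were at or under 3 reads in every library. The 10 endothelial markers were all tested with 0 calls, and their sums were 1112 to 1977 and 1486 to 2374. Of the 10 muscle stem cell markers 4 were higher and 0 lower, beside 3.99% and 6.36% of all genes tested, and 3 had changes below 0. Myod1 led the higher ones with 172 ± 56.6 against 828 ± 110.3 (SD, n = 4 each, limma adjusted p = 0.000146). The part of these markers in the values of Cxcl1, Cxcl2, Cxcl5, Ccl2 and Ccl7 was not tested.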

How the data were processed

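Total RNA of sorted ASCs was sequenced as stranded low-input libraries, 4 wild-type and 4 mfn2-/-, grouped by their titles. Values were deposited as a signal for each gene, being read counts that the authors had normalized between libraries. The submitters' processing notes name Trim Galore, HISAT2, featureCounts, DESeq2 and mm9 without versions, and the annotation is not given in the sources used here. In every library 100% of values were whole multiples of 1 step within 0.01 reads, so whole reads were recovered, and 0 columns were left without a sample. Replicates of a group differed beyond sampling noise. Spread and depth limit weak genes most in wild-type replicate 1 and mfn2-/- replicate 4, and floors of 3 reads cover counting error only.

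Genes with a mean of at least 10 (11754) entered a two-sided test by limma 3.58.1 (R 4.3.3) of log2(value + 1), trended by intensity, with Benjamini-Hochberg adjustment at 0.05. Changes on this scale depend on the pseudocount for weak genes, and a library at 0 can enlarge or reverse them against the ratio of means. On the recovered reads edgeR 4.0.16 (quasi-likelihood, TMM) called 1158 genes and DESeq2 1.42.0 1738. Single values were compared by two-sided exact permutation over 70 arrangements (scipy 1.17.1, Python 3.11.15). Fits were tested on simulated data.

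Members and lists were chosen with earlier results of these data known. All members were named, and from each other list up to 3 genes that passed, by change. From some lists up to 2 abundant genes that did not pass were named as well, not always the most abundant ones. Pdgfra, Dcn, Pax7, Vcam1, Itga7, Nfkbia, Cxcl3, Cxcr2, Ccr2, Adgre1, Ptprc, Ly6g and Ngp were named beside that rule, after their values were seen. Positions are from GENCODE M21 (GRCm38), since the table holds none, and start sites from RefSeq (GRCm38.p6). Alternatives were other pseudocounts (0.1 and 10), filters (none and 50), scalings, fits, an adjusted p under 0.01 and each library left out, and 3 added after seeing the data: both shallowest libraries left out, the number pair as a term, and the interaction with Y-linked reads.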

Additional observations from a re-analysis of the deposited data

Results flagged for a closer look

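Cx3cl1 in wild-type replicate 1 stood at 65.95 normalized reads, far above the other 3 wild-type libraries by Dixon's ratio (0.830, just past its 95% critical value). The value came from 29 sequenced reads in the shallowest library. Of 26 groups examined this was the only one past that value, and chance alone would give about 1.3.

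The genotype difference of Cxcl1 was larger by 2.14 on the log2 scale in libraries with Y-linked reads than in those without (SE 0.19, limma adjusted p = 0.000606), with all 4 libraries numbered 1 and 2 above those numbered 3 and 4 of their group. The corresponding value for Ccl2 was 2.98 (SE 0.45, adjusted p = 0.01002), with the same order of libraries. Without the intensity trend neither passed (adjusted p = 0.223 and 0.127). Both are the same contrast as replicates 1 and 2 against 3 and 4 across groups and cannot be told apart from it.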

How the results depend on the processing

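Cxcl14 kept its direction and its call in all 24 alternatives (log2 change -7.46 to -5.17, highest adjusted p 0.0303). The members called, 1 in the fit described, were 2 with a pseudocount of 10 (Cxcl5 added, adjusted p = 0.0316), 4 with quantile normalization (Cxcl1, Cxcl5 and Cxcl16 added), 7 with library weights (all but Cxcl10, Cxcl12 and Cx3cl1, with Cxcl1 at 1.55, Cxcl2 at 2.18, Ccl2 at 1.80, Cxcl5 at 3.87, Ccl7 at 1.16 and Cxcl16 at 1.83), 3 without both shallowest libraries (Cxcl2, adjusted p = 0.0396, and Cxcl5, adjusted p = 0.0248, added) and 3 with the number pair as a term. Leaving out each library in turn gave 1 to 2 members and 670 to 1307 genes, beside 1217 in all. Genes called were 633 without the intensity trend, 3037 with library weights and 498 at an adjusted p under 0.01. Without the trend 17.9% of the calls were higher, against 38.5% in the fit described. Library weights were 1.53 to 3.75 in libraries with Y-linked reads and 0.167 to 0.908 in those without. Among the latter, mfn2-/- replicate 4 had 0.167 and wild-type replicate 1 had 0.345. Weighted differences thus lean on the libraries with Y-linked reads. The median of all genes moved by 0.29 with quantile normalization. Cx3cl1 turned to 0.94 with quantile normalization, 0.76 with library weights, 0.34 with edgeR, 0.20 with DESeq2, 0.75 without mfn2-/- replicate 4 (range over libraries left out -1.22 to 0.75) and 1.17 without both shallowest libraries, and it passed in none of these; the mfn2-/- value of 0 enters the fit described. Depth limits weak members, 1 read being worth up to 2.27. Without the trend neither interaction passed (adjusted p = 0.223 for Cxcl1 and 0.127 for Ccl2). For every other change here the cause was not tested.

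The labels do not say whether replicate numbers pair the samples. Deviations of same-numbered libraries over all genes tested correlated at -0.03, -0.05, 0.04 and -0.11, beside -0.06 to 0.12 for libraries with different numbers. Such correlations cannot decide whether same-numbered libraries were handled together. With the number as a replicate block 1043 genes and 2 members were called, Cxcl14 and Cxcl1 (adjusted p = 0.0161).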
